A study of Macaca mulatta with 16 samples.

Results

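Methylation of whole blood DNA was examined at 4334 CCCGGG sites of the rhesus monkey genome that lay close to other such sites and were nearly free of methylation in the youngest animals. A site was a member if it lay on chromosomes 1 to 20, was covered by 100 or more reads in 10 or more of the 13 libraries from ad libitum (AL) fed monkeys, had a mean methylation under 5% in AL-infant, and had at least 3 other listed sites within 500 bp. The members were 17.8% of the 24288 sites on these chromosomes that met the read minimum, out of 362007 listed sites. Because the mean of the AL-infant monkeys selected the members, AL-infant values are given as a description and enter no test.

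The libraries came from 16 monkeys, a library each. They were 4 AL-infant monkeys of 0.8 to 0.9 years (2 female, 2 male), 5 AL-middle monkeys of 10.4 to 12.1 years (1 female, 4 male), 4 AL-old monkeys of 21.9 to 29.8 years (1 female, 3 male) and 3 CR-old monkeys of 23.7 to 25.1 years (all female) kept on caloric restriction (CR). The CR-old group held no male, so diet and sex cannot be told apart except against the only AL-old female, AL-old 2. Monkeys are numbered as in the labels. Whole blood is a mixture of cells, and a shift in the share of a cell type cannot be told apart from a change within cells.

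DNA methylation marks the cytosine of CpG dinucleotides, and most CpGs of a mammalian genome carry it. The exceptions are short CpG-dense stretches, the CpG islands, many of them at promoters, and blood is known to gain methylation at some of them with age. Sites recognised by SmaI (CCCGGG) hold a CpG and crowd together in such stretches, so a dense group of SmaI sites served as a stand-in for a CpG island. No island or gene annotation of the rheMac2 build was used here, so no gene is named.

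DREAM (digital restriction enzyme analysis of methylation) digests DNA first with SmaI, which cuts only unmethylated sites, and then with XmaI, which cuts those left. The end of each read then shows whether its site was methylated. Corrected methylation is the percentage that the authors adjusted with spiked-in standards. The correction constant of a library, a factor on the odds of methylation, was computed here from the deposited percentages. It is the median ratio of the odds after correction to those before, over partly methylated sites with many reads. Uncorrected methylation is methylated reads over all reads.

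Reads counted at SmaI sites ranged from 8075854 in AL-old 24 to 129172235 in CR-old 28. The median member had 161 reads in AL-old 24 and 3714 in CR-old 1, and the other libraries lay between. With 100 reads, a share under 3% (3 reads) is not distinguishable from 0 by counting. The correction constants were 0.398 to 0.460 in AL-infant, 0.469 to 0.728 in AL-middle, 0.250 to 0.424 in AL-old, and 0.494 to 0.772 in CR-old, so AL-old values were lowered most on average. A partly methylated standard, Luc306, read 27.3 to 32.0% before correction in AL-middle and 50.1 to 68.2% in AL-old. It read 41.4 to 56.0% in AL-infant, 42.6% in CR-old 4, and 27.6% and 30.4% in CR-old 1 and CR-old 28. Age group and this property of the libraries cannot be told apart between AL-middle and AL-old. Diet and this property cannot be told apart between CR-old and AL-old either, since neither the readings nor the constants overlapped.

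The members stayed low in every group, and the older groups sat above AL-infant. Mean corrected methylation over members was 0.320, 0.388, 0.359 and 0.313% in AL-infant 49, 52, 54 and 57. In AL-middle 17, 40, 42, 43 and 46 it was 1.03, 1.40, 1.13, 1.18 and 0.964%. In AL-old 2, 7, 24 and 33 it was 1.61, 1.18, 1.19 and 1.92%. No AL-infant monkey reached the level of any older one. In CR-old 1, 4 and 28 the mean was 1.41, 1.02 and 1.54%. AL-middle, AL-old and CR-old overlapped.

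Group means (± SD) were 1.14 ± 0.166% in AL-middle (n = 5), 1.48 ± 0.359% in AL-old (n = 4) and 1.32 ± 0.269% in CR-old (n = 3). AL-old exceeded AL-middle by 0.337 points (exact permutation test, two-sided, p = 0.0952, adjusted over 3 comparisons p = 0.286). CR-old minus AL-old was -0.153 points (exact permutation test, two-sided, p = 0.6, adjusted p = 0.6). CR-old and AL-middle differed by 0.184 points (exact permutation test, two-sided, p = 0.286, adjusted p = 0.429). None of the 3 tests gave an adjusted p under 0.05, with 3 to 5 monkeys in a group. The smallest p these designs allow is 0.00794, 0.0286 and 0.0179, in that order.

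The uncorrected percentages gave another picture. Means over members were 3.35, 3.32, 3.97 and 4.46% in AL-old 2, 7, 24 and 33, and 1.33 to 2.41% in AL-middle. CR-old 1, 4 and 28 had 1.77, 1.86 and 2.34%. AL-old lay above every AL-middle and every CR-old monkey. AL-old exceeded AL-middle by 2.02 points (exact permutation test, two-sided, p = 0.00794, adjusted p = 0.0238), and CR-old minus AL-old was -1.78 points (p = 0.0286, exact permutation test, adjusted p = 0.0429). Whether AL-old stood apart therefore depended on the correction constant. CR-old 4 had the highest Luc306 reading of the CR-old group. Its corrected mean of 1.02% and uncorrected mean of 1.86% were below those of all 4 AL-old monkeys. Its Luc306 reading of 42.6% was still below, and its constant of 0.494 above, those of every AL-old library. It therefore does not separate diet from the libraries.

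**Figure D1:**
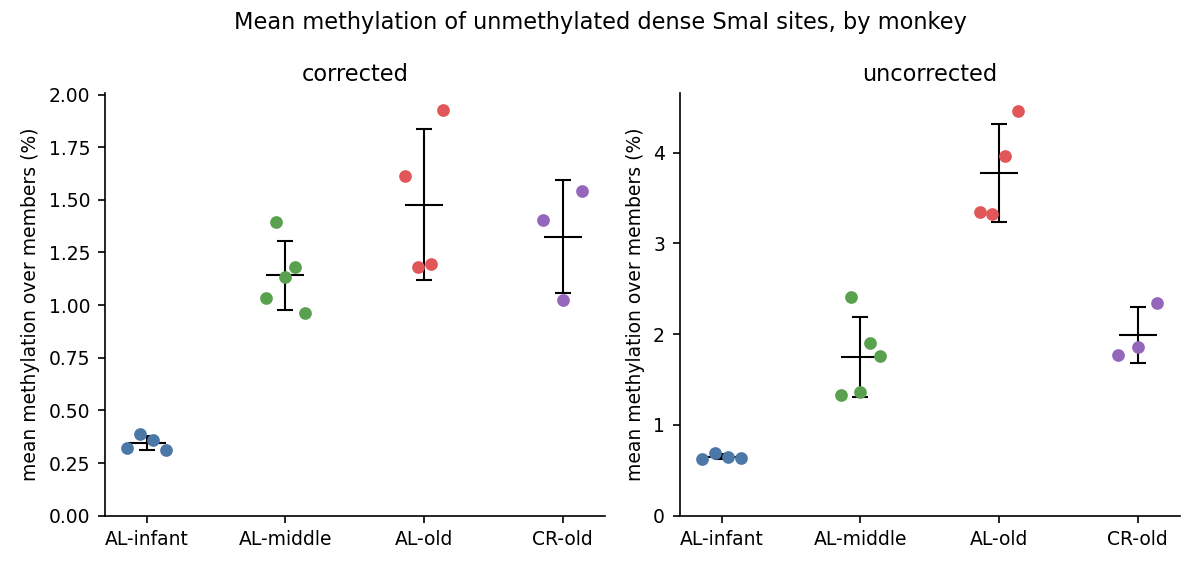
Mean methylation (%) over members by group, for corrected (left) and uncorrected (right) values; points are monkeys, and black bars show the group mean and SD. AL-old spans 1.18 to 1.92% after correction and overlaps AL-middle and CR-old, while before correction it spans 3.32 to 4.46% and lies above both.

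Most members carried little methylation at any age, and a small share carried much more. By group mean, 92.2% of members were under 1% in AL-infant, 71.2% in AL-middle, 65.2% in AL-old and 67.4% in CR-old. Members with a group mean from 5 to 10% numbered 163 in AL-middle, 280 in AL-old and 217 in CR-old. Those from 10 to 20% numbered 41, 76 and 58, and those over 20% numbered 2, 3 and 2. The median over members in each monkey averaged 0.292% in AL-middle, 0.292% in AL-old and 0.360% in CR-old. In CR-old 1, 4 and 28 it was 0.34, 0.21 and 0.53%. The median is sensitive to the 0.5 reads that the authors added, since 2.22 to 45.4% of members had no methylated read in a library of these 3 groups.

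Members over 10% were counted in each monkey. In AL-old 2, 7, 24 and 33 they were 117, 44, 30 and 209 members, or 2.70, 1.02, 0.819 and 4.84% of those with enough reads. In AL-middle they were 0.578 to 1.71%, and in CR-old 1, 4 and 28 they were 1.83, 1.04 and 1.78%. After correction, AL-old 2 and 33 stood above all other monkeys, while AL-old 7 and 24 lay within the range of AL-middle. Before correction AL-old 24 had 13.8% and AL-old 2 had 11.2%, so the order among AL-old monkeys depended on the constants. Uncorrected shares were 10.2 to 14.1% in AL-old against 1.53 to 6.15% in AL-middle and 3.05 to 4.65% in CR-old, with no overlap of AL-old with either (exact permutation test, two-sided, p = 0.00794 and 0.0286, adjusted p = 0.0159 and 0.0286). On the corrected scale, AL-old minus AL-middle was 1.36 points (exact permutation test, two-sided, p = 0.151) and CR-old minus AL-old was -0.794 points (exact permutation test, two-sided, p = 0.686). Without AL-old 33 the latter was 0.0372 points. AL-infant 49 had 1 member over 10% and the other AL-infant monkeys had 0.

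**Figure D2:**
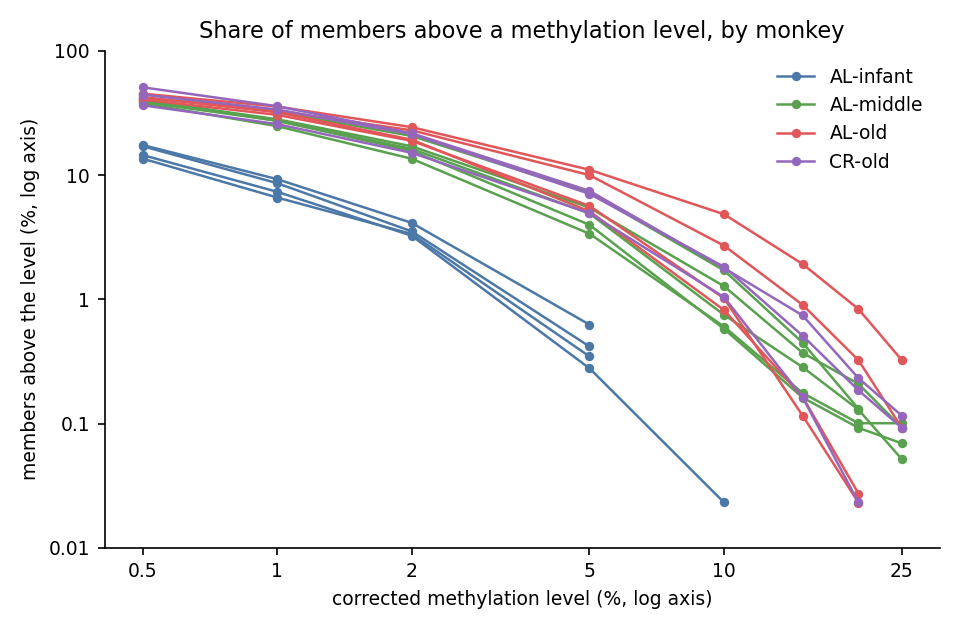
Share of members (%, log axis) above a corrected methylation level (%, log axis), with a line for each monkey coloured by group; a share of 0 is not drawn. At 10%, AL-old 33 (4.84%) and AL-old 2 (2.70%) lie above the others, and the AL-infant lines lie lowest throughout.

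The same members tended to be high in different monkeys. Over the 3138 members with at least 100 reads in all 16 libraries, Spearman's rho between monkeys of a group was 0.658 to 0.720 in AL-infant, 0.817 to 0.882 in AL-middle, 0.859 to 0.880 in AL-old and 0.842 to 0.894 in CR-old. These are correlations across members, which share libraries and neighbouring DNA, and are given as a description. The selection kept AL-infant means under 5%, and 48.5 to 53.2% of members had no methylated read in an AL-infant library. The AL-infant correlations are therefore not read against those of the older groups. Of the 3138, 80 were over 5% in all 4 AL-old monkeys, 58 in all 5 AL-middle monkeys and 111 in all 3 CR-old monkeys. Of the 80, 41 were over 5% in every AL-middle monkey and 62 in every CR-old monkey. The groups hold different numbers of monkeys, so these counts do not compare levels.

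Each member was then tested on its uncorrected methylated and unmethylated reads with a quasi-binomial logistic model, adjusted over all sites tested. Its calls therefore cannot be told apart from the difference in constants between AL-old and both AL-middle and CR-old. Corrected percentages given beside its p values are not what it tested. Of 4195 members tested, 665 were higher in AL-old than in AL-middle (adjusted p under 0.05) and 3 were lower. Without AL-middle 17 the higher members numbered 125, or 3.21%, against 2.62% of all sites. Over all 23394 sites tested, 11.4% were called higher and 0.928% lower, against 15.9% and 0.072% of the members. When the correction constants entered the model as an offset, 152 members were higher and 17 lower, or 3.62% and 0.405%, against 2.01% and 13% of all sites. Among all sites the balance of calls thus turned from mostly higher to mostly lower, while among members it stayed mostly higher. Members were chosen for low methylation in AL-infant, which leaves little room for a lower call, and all sites were not chosen so. How far this selection set the contrast was not tested, so it is not read as a trait of dense sites. The unmethylated sites with 1 or 2 neighbours, chosen by the same limit, also stayed mostly higher, with 221 higher and 32 lower with the offset. Of the members called in the first model, 179 were higher with no overlap of the groups, or 4.27% of those tested against 2.33% of all sites, and 2 were lower, against 0.885% of all sites.

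For CR-old against AL-old, 44 of 4280 members were lower and 0 were higher in the same model. At an unadjusted p under 0.05 the counts were 931 and 78, or 21.8% and 1.82% of members, against 14.8% and 3.45% of all sites. Among all 33134 sites tested, 0.682% were called lower and 0.0272% higher, so the members' 1.03% was near the background. With the offset, 19 members were lower and 68 higher, or 0.444% and 1.59%, against 0.377% and 12.5% of all sites. The call and no overlap of the groups were met by 25 lower members, or 0.584%, against 0.353% of all sites. Limma on log2 odds called 0 members in either direction. Without AL-old 24, or without any of the 3 CR-old monkeys, the count of lower members was 0, and without AL-old 7 it was 231, or 6.36%. Without AL-old 7 the calls over all sites moved as well, to 3.22% lower and 3.00% higher.

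Of the 3138 members with enough reads in all 16 libraries, 145 were called higher in AL-old than in AL-middle without overlap of these groups. Without the condition on all 16 libraries they were 179, or 4.27% of members against 2.33% of all sites. The 4 of the 145 with the largest differences are given. SmaI_rheMac2_173644 (chromosome 9, position 22450579, rheMac2) had corrected methylation of 2.04, 3.42, 0.86 and 2.53% in AL-infant and 12.44, 18.94, 15.94, 18.95 and 16.69% in AL-middle. It had 38.63, 24.51, 22.65 and 37.81% in AL-old and 12.29, 14.61 and 14.80% in CR-old. All AL-old monkeys lay above all AL-middle and CR-old monkeys, and the AL-old mean was 14.31 points above that of AL-middle. The model on uncorrected counts gave an adjusted p of 0.00823 for AL-old against AL-middle and 0.0397 for CR-old against AL-old (limma-moderated dispersion). With the offset these were 0.0293 and 0.0186. In AL-old 24, the shallowest library, 185 of 343 reads were methylated, or 53.94% before correction (Wilson 95% interval 48.65 to 59.14%).

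SmaI_rheMac2_173643, in the same cluster at position 22450459, had 10.02 to 13.95% in AL-middle, 30.68, 14.42, 18.60 and 16.04% in AL-old. CR-old had 8.91, 10.33 and 12.57%. The groups did not overlap, though AL-old 7 was close to AL-middle 43. The adjusted p was 0.0176 against AL-middle and 0.0483 for CR-old against AL-old, and 0.14 and 0.0872 with the offset. The pair lies on neighbouring DNA and is not independent.

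SmaI_rheMac2_113418 (chromosome 6, position 2636618) had 4.08 to 5.61% in AL-middle, 12.68, 6.89, 17.64 and 17.38% in AL-old. CR-old had 6.36, 4.28 and 6.75%. Its adjusted p was 0.0168 for AL-old against AL-middle and 0.0854 with the offset. SmaI_rheMac2_183858 (chromosome 9, position 106875342) had 2.47 to 6.24% in AL-middle, 15.11, 9.85, 8.49 and 15.49% in AL-old. CR-old had 9.86, 5.69 and 6.18%, and CR-old 1 overlapped AL-old. It kept its call with the offset (adjusted p = 0.00334 and 0.00837).

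Only 2 members with reads in all 16 libraries were called lower in AL-old than in AL-middle without overlap. SmaI_rheMac2_259924 (chromosome 14, position 10434381) had 3.38, 4.33, 0.72, 2.66 and 0.88% in AL-middle and 0.14, 0.30, 0.15 and 0.50% in AL-old. AL-middle 42 had 1 methylated read of 146 there (Wilson 95% interval 0.12 to 3.78%). Its uncorrected 0.68% lay below the 0.91% of AL-old 7 and the 1.2% of AL-old 33, so the groups overlapped before correction. CR-old had 3.59, 2.10 and 1.56%, above all AL-old monkeys. SmaI_rheMac2_2817 (chromosome 1, position 5627022) had 0.48 to 1.65% in AL-middle and 0.19 to 0.32% in AL-old. Both stayed called with the offset, with an adjusted p of 0.00633 and 0.0102, but the offset raised lower calls from 0.928% to 13% of all sites. Both lost the call with limma on log2 odds and without AL-middle 17, and SmaI_rheMac2_2817 also without AL-middle 42 or 43. SmaI_rheMac2_2817 had only 4 to 11 methylated reads in an AL-old library. Before correction it had 0.86% in AL-old 24 and 0.91% in AL-middle 40.

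Of the same 3138 members, 22 were called lower in CR-old than in AL-old without overlap. Without the condition on all 16 libraries they were 25, or 0.584% of members against 0.353% of all sites. Among the 22, SmaI_rheMac2_173644 and SmaI_rheMac2_173643 had the largest differences, followed by 2 members on other chromosomes. SmaI_rheMac2_244930 (chromosome 13, position 45157281) had 22.31, 12.52, 13.82 and 22.09% in AL-old and 8.63, 7.50 and 10.05% in CR-old. SmaI_rheMac2_301176 (chromosome 16, position 50463526) had 18.32, 8.87 and 10.47% in AL-old 2, 7 and 24, a higher value in AL-old 33, and 5.84, 6.19 and 7.27% in CR-old. The adjusted p for CR-old against AL-old was 0.0397 for both sites, and 0.0461 and 0.0627 with the offset. Sites differing most between AL-old and AL-infant were SmaI_rheMac2_173644, SmaI_rheMac2_173643, SmaI_rheMac2_244930 and SmaI_rheMac2_239691 (chromosome 13, position 5770264), by 28.69, 19.12, 16.42 and 16.39 points, a description. SmaI_rheMac2_239691 had 10.68 to 25.80% in AL-old and overlapped both AL-middle and CR-old.

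**Figure D3:**
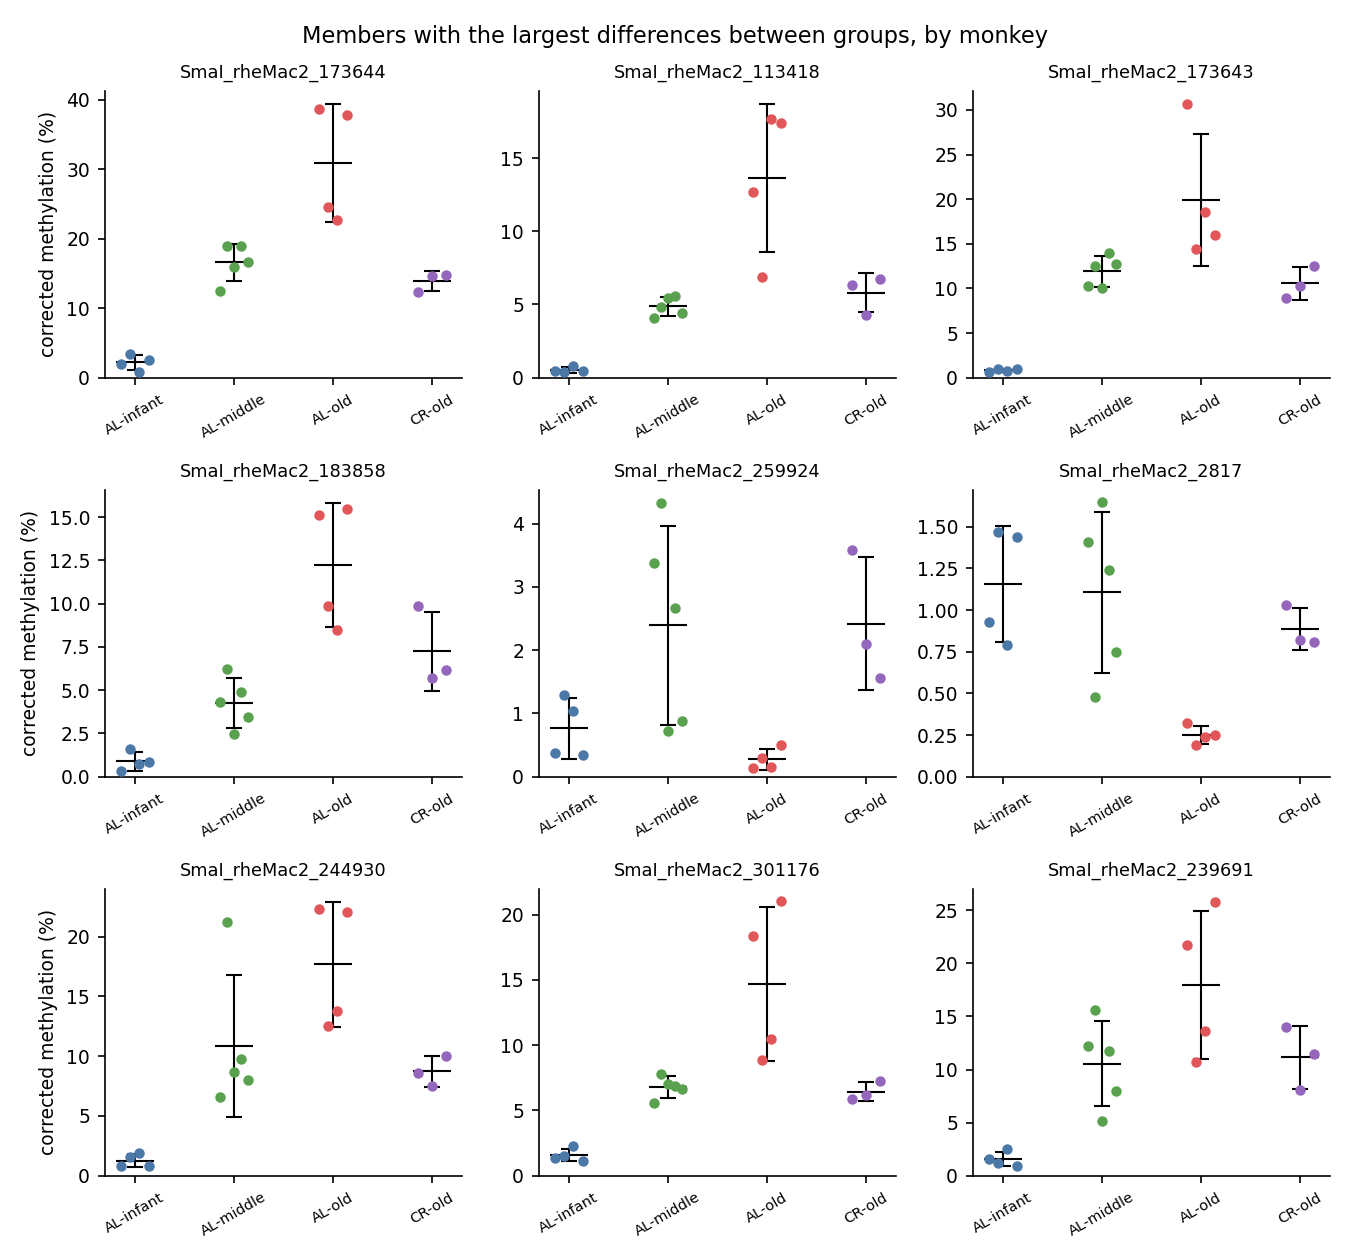
Corrected methylation (%) of 9 members in each monkey by group; points are monkeys, and black bars show the group mean and SD, with a separate vertical axis for each site. SmaI_rheMac2_173644 reaches 22.65 to 38.63% in AL-old against 12.29 to 14.80% in CR-old, and SmaI_rheMac2_259924 and SmaI_rheMac2_2817 are lowest in AL-old.

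Members gathered in 1782 clusters, here runs of listed sites at most 500 bp apart. A single member was found in 464 clusters, 2 members in 633, 3 or 4 in 563 and 5 or more in 122. Clusters had a median length of 651.5 bp, and the nearest listed site lay a median of 97 bp from a member. Members of a cluster resembled each other: the intraclass correlation over 3870 members in 1318 clusters was 0.431 for the AL-infant mean, 0.512 for AL-middle, 0.569 for AL-old and 0.553 for CR-old. For the difference between AL-old and AL-middle it was 0.335. Adjacent members 50 to 200 bp apart had a Spearman's rho of 0.816 to 0.820 between their AL-old means, against 0.754 at 200 to 500 bp. Neighbours share DNA fragments and library effects, so these values carry no test. The AL-infant value is limited by the selection and is not read against the others.

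The cluster on chromosome 9 from 22450000 to 22450604 held 5 members and had both the largest mean difference between AL-old and AL-middle and the widest range of AL-old means among clusters of 5 or more members. From the first site to the last, AL-old means were 1.62, 7.63, 11.86, 19.94 and 30.90%, and CR-old means were 1.74, 4.08, 5.41, 10.60 and 13.90%. In all 4 groups each site's mean was above that of the site before it, in AL-infant from 0.185 to 2.21%. Its mean over members was 18.36, 10.38, 13.94 and 17.34% in AL-old, 6.64 to 9.83% in AL-middle and 6.38 to 7.63% in CR-old. A member value under 100 reads was left out of these means in AL-middle 40, AL-middle 42 and AL-old 24.

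The cluster with the most members, 11, lay on chromosome 10 from 18603386 to 18604819. Its first 7 members had AL-old means of 0.033 to 0.080%, and its last had 19.75% in AL-old 2 and 3.54, 4.09 and 3.64% in the other 3 AL-old monkeys, against 0.95 to 3.68% in AL-middle and 3.31 to 3.68% in CR-old. AL-old 2 had a cluster mean of 2.43%, and the other 3 AL-old monkeys had 0.580 to 0.654%, within the range of 0.309 to 0.728% of AL-middle and CR-old. The cluster of 10 members on chromosome 14, from 44104113 to 44105515, had AL-old means of 0.468 to 6.41% with no run from end to end. A cluster of 8 members on chromosome 1, from 50528125 to 50529194, which shared its size with 4 others and was taken as the first of them, had AL-old means of 0.448 to 4.23%.

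**Figure D4:**
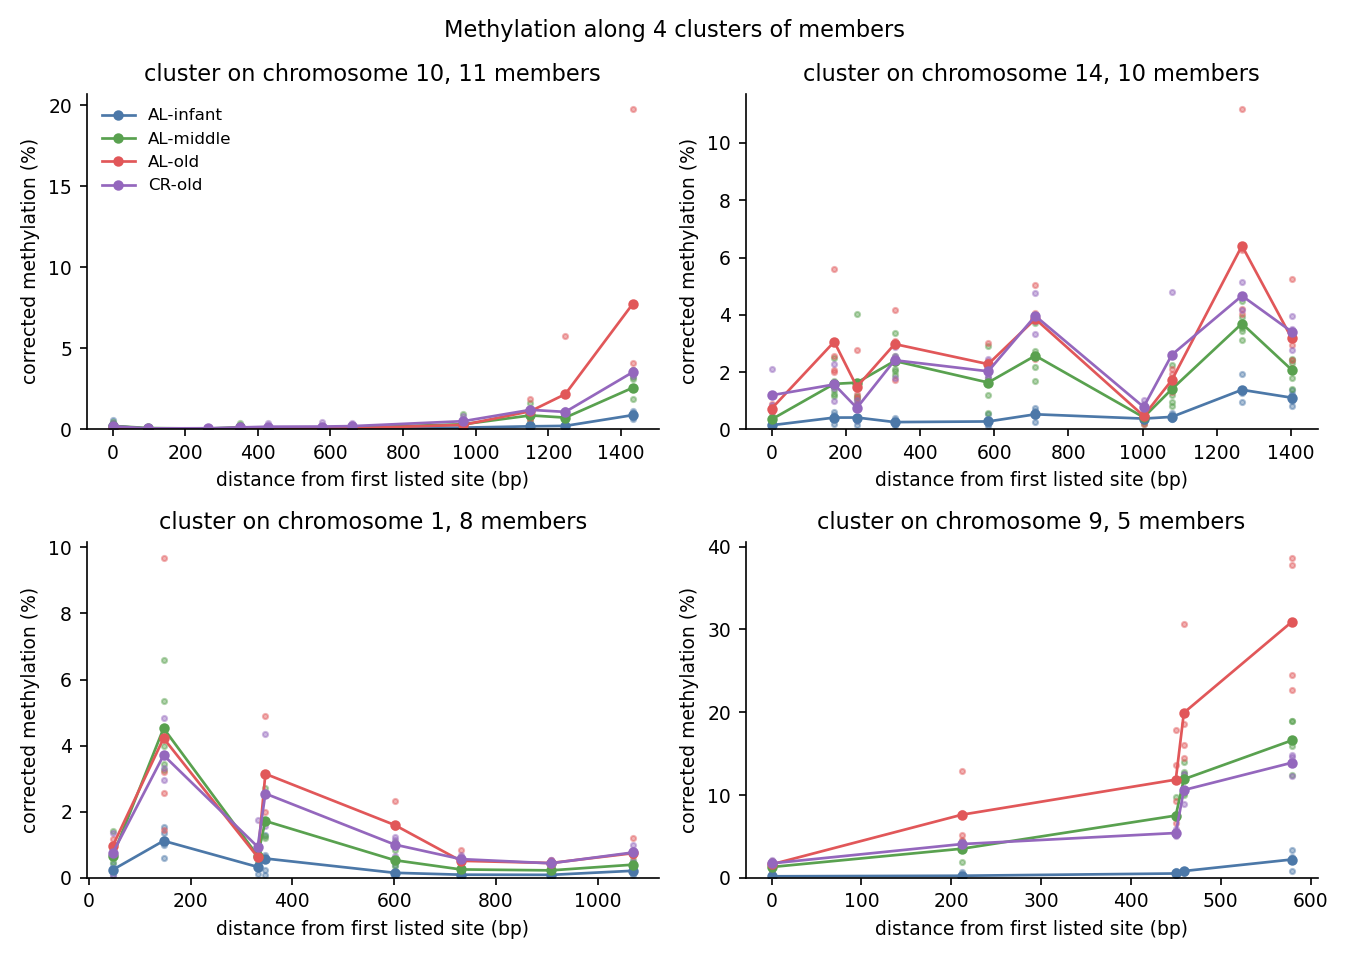
Corrected methylation (%) of members along 4 clusters, by distance (bp) from the first listed site; lines join group means and small points are monkeys, with a separate vertical axis for each cluster. In the cluster on chromosome 9 AL-old means go from 1.62 to 30.90% and CR-old means from 1.74 to 13.90%, and in that on chromosome 10 the first 7 AL-old means are at most 0.080%.

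Members with different numbers of neighbours had overlapping levels. Mean AL-old methylation was 1.46 ± 0.343% with 3 neighbours (2217 members), 1.39 ± 0.330% with 4 (1203 members), 1.74 ± 0.480% with 5 (591 members) and 1.47 ± 0.381% with 6 or more (323 members), all n = 4. Members in clusters that also held a covered site at or over 5% in AL-infant stood higher. These 346 members averaged 2.74% in AL-middle, 3.39% in AL-old and 3.27% in CR-old, against 1.00, 1.31 and 1.16% for the other 3988. They were also higher in AL-infant, at 1.11 against 0.279%, which the selection measured. Members within 2 Mb of the first or last listed site of a chromosome were 12.0% of members. In AL-old they averaged 1.73 ± 0.485% against 1.44 ± 0.3422% for the rest. The same order held in AL-infant (0.4696 against 0.3284%), AL-middle (1.4961 against 1.0944%) and CR-old (1.5953 against 1.2878%). The higher level near the ends was therefore not particular to AL-old.

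Members with a higher mean in AL-infant also averaged higher in the older groups. The members were grouped by the AL-infant means that had selected them, so this order is a description. In an AL-infant library, 48.46 to 53.2% of members had no methylated read. A mean under 0.1% therefore depends on read depth and on the reads that the authors added. The 1804 members under 0.1% in AL-infant averaged 0.201% in AL-middle, 0.238% in AL-old and 0.232% in CR-old. The 337 members from 1 to 5% averaged 5.62, 6.4 and 6.55%. By chromosome, AL-old means ranged from 0.983% on chromosome 2 (174 members) to 2.77% on chromosome 18 (74 members). The members nearest the limit of 5% were SmaI_rheMac2_140692 (AL-infant mean 4.98%) and SmaI_rheMac2_217984 (4.96%), and the nearest sites left out were SmaI_rheMac2_306230 (5.02%) and SmaI_rheMac2_301785 (5.03%). Of dense covered sites left out by the limit, 187 of 1412 were under 20% in AL-infant and 549 were over 90%. With exactly 3 neighbours there were 2217 members, and 3415 unmethylated sites had exactly 2.

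Unmethylated sites with fewer neighbours, chosen by the same limit in AL-infant, served for comparison. In all 16 monkeys the members averaged less than the 6683 sites with 1 or 2 neighbours, by 0.114 to 0.214 points. Against the 115 sites with no neighbour within 500 bp, members were lower in all 4 AL-infant monkeys, and higher in all 5 AL-middle, 3 of 4 AL-old and all 3 CR-old monkeys. This order depended on the read minimum: with a minimum of 20 reads, members minus isolated sites averaged -0.226 points in AL-middle, -0.312 in AL-old and -0.352 in CR-old. The excess of members over isolated sites was 0.133 ± 0.0454 points in AL-middle (n = 5), 0.0377 ± 0.189 in AL-old (n = 4) and 0.248 ± 0.0597 in CR-old (n = 3). AL-old minus AL-middle in this excess was -0.0949 points (exact permutation test, two-sided, p = 0.349). CR-old minus AL-old was 0.210 points (exact permutation test, two-sided, p = 0.143). Neither p was under 0.05. Of the sites with 1 or 2 neighbours, 16.7% were called higher in AL-old than in AL-middle, near the 15.9% of members.

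**Figure D5:**
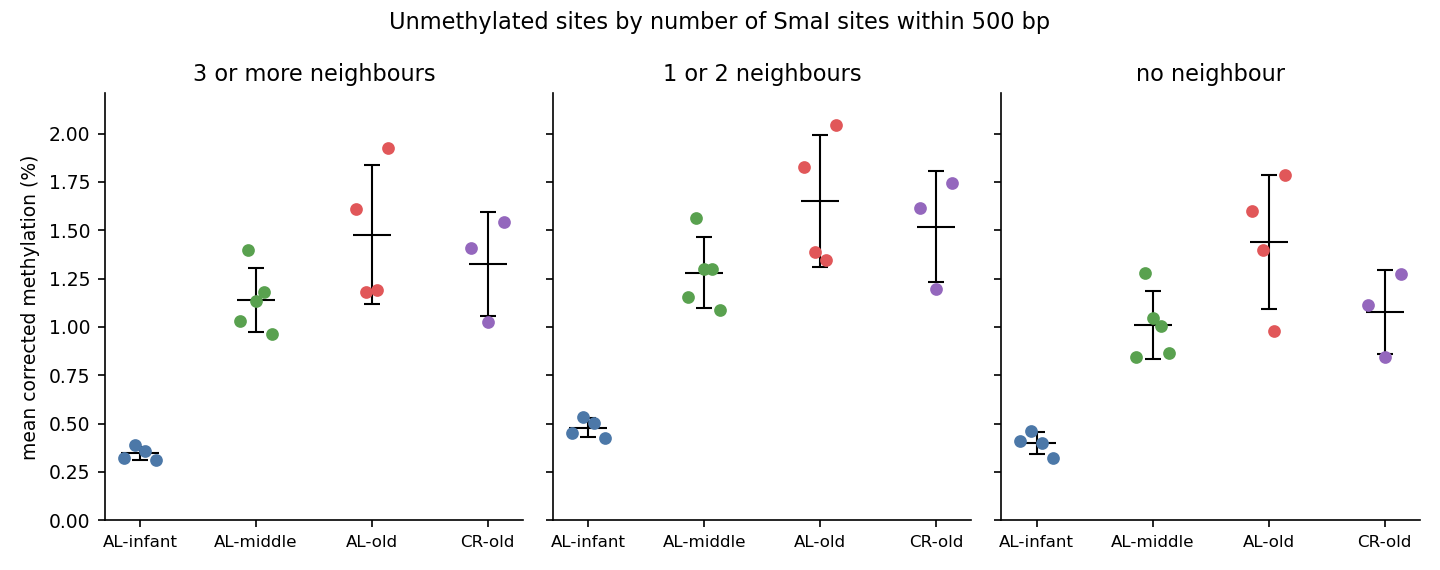
Mean corrected methylation (%) of unmethylated sites with 3 or more, 1 or 2, or no other SmaI site within 500 bp, by group; points are monkeys, and black bars show the group mean and SD. The AL-old means are 1.48, 1.65 and 1.44% in the 3 classes, and AL-old overlaps AL-middle and CR-old in each.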

How the data were processed

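DREAM data of whole blood DNA from 16 rhesus monkeys were analysed. The authors digested DNA with SmaI and XmaI, sequenced it, and deposited read counts (methylated, unmethylated, total) for every SmaI site. The submitters' processing notes name Bowtie2 and SAMtools, whose versions are not given in the sources used here. These notes name the build mm10, while the design text and site identifiers name rheMac2, which was used for positions. Each deposited file also holds 2 columns in percent: the share of methylated reads after adding 0.5 reads to each kind, which the values matched to within 0.005 points, and a percent corrected with spiked-in standards. Values under 100 reads were left out.

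Groups came from the labels, which call the AL-infant monkeys young; the name follows the paper's supplement. The members, lists and comparisons were chosen with earlier results of these data known. Group means were compared by exact two-sided permutation tests over monkeys. Uncorrected read counts at each site with at least 3 monkeys per group entered a quasi-binomial logistic model. Its dispersion was moderated by limma and not below 1, with Benjamini-Hochberg adjustment over all sites tested. Named sites had at least 100 reads in all 16 libraries. They were those with the largest differences among sites with a call and groups that did not overlap, and, as a description without these conditions, those with the largest AL-old minus AL-infant difference and those nearest the 5% limit. Named clusters were the 3 with most members and, among those of 5 or more, that with the largest difference and that with the widest range of AL-old means.

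The model was tested on simulated data of 4000 sites, 200 of them changed. It recovered 71% of changed sites for AL-old against AL-middle and 77% for CR-old against AL-old, and called 0.342% and 0.421% of unchanged ones. Of changed sites with a simulated mean under 5%, like the members, it recovered 31.9% and 40.3%. These rates describe the simulated data alone. Whether they hold for the calls in the libraries, whose constants differed between AL-old and both AL-middle and CR-old, was not tested. Alternatives were other read minimums, uncorrected percentages, limma on log2 odds, the constants as offset, other site choices and each monkey left out. Leaving out the 0.5 reads and the sites with 1 or 2 neighbours as comparison were added after seeing the data. Since PCR duplicates cannot be recognised, intervals and floors reflect counting error alone. The labels name separate monkeys, each sampled once. Models ran in R 4.3.3 (limma 3.58.1). Other computations used scipy 1.17.1, numpy 2.4.6 and pandas 2.3.3 under Python 3.11.15, and plots matplotlib 3.10.9.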

Additional observations from a re-analysis of the deposited data

Results flagged for a closer look

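Of 43 groups of 4 or 5 monkeys examined, 4 held a monkey far from the others of its group, and chance marks about 1 in 20. The share of members over 10% was 0.0232% in AL-infant 49 (1 member) and 0 in the other 3 AL-infant monkeys. SmaI_rheMac2_244930 had 21.26% in AL-middle 40 against 6.57 to 9.73% in the other AL-middle monkeys. SmaI_rheMac2_217984, a member just under the limit of 5%, had 14.95% in AL-middle 43 against 0.55 to 3.99% in the others, and 1.62% in AL-old 7 against 0.58 to 0.69%.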

How the results depend on the processing

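Uncorrected percentages made the group differences of the members larger: 2.02 points for the mean of AL-old minus AL-middle, -1.78 for CR-old minus AL-old, and 8.94 and -8.28 for the share over 10%, all of them past the threshold. The difference between dense and isolated sites turned to 0.0280 for AL-old minus AL-middle with uncorrected values and to 0.119 with 100 reads in all 16 libraries. For CR-old minus AL-old it turned to -0.0403 with a read minimum of 20 and to -0.0214 against sites with 1 or 2 neighbours. The median over members turned CR-old minus AL-old to 0.0675. With each monkey left out, the mean differences ranged from 0.188 to 0.436 (AL-old minus AL-middle), -0.262 to -0.00302 (CR-old minus AL-old) and 0.0745 to 0.334 (CR-old minus AL-middle). The shares over 10% ranged from 0.531 to 1.87 and from -1.30 to 0.0372, turning without AL-old 33. The differences between dense and isolated sites ranged from -0.154 to -0.00985 and from 0.125 to 0.270. Members higher in AL-old than in AL-middle numbered 125 (without AL-middle 17) to 679, and those lower 2 to 4. The 125 were 3.21% of members against 2.62% of all sites, and the 679, without AL-old 7, were 19.2% against 11.6%. Lower calls without AL-old 7 were 0.057% of members, which were chosen low and had little room to fall, against 10.2% of all sites. Members lower in CR-old than in AL-old numbered 0 to 231, and those higher 0 to 1. Without AL-old 7 the 231 lower and 1 higher were 6.36% and 0.028% of members, against 3.2% and 3.0% of all sites. Requiring a difference of at least 2 points left 201 members higher in AL-old than in AL-middle (4.79%, against 4.73% of all sites) and 25 lower in CR-old than in AL-old (0.584%, against 0.555%). With the constants as offset, 152 and 17 members were higher and lower in AL-old than in AL-middle. These were 3.62% and 0.405% of members, against 2.01% and 13% of all sites. In CR-old against AL-old, 68 and 19 were higher and lower, or 1.59% and 0.444%, against 12.5% and 0.377% of all sites. Limma and a read minimum of 20 gave 0 members lower in CR-old, against 0.006% and 0.004% of all sites. A minimum of 200 gave 70, or 2.53% of members against 1.56% of all sites. The causes were not tested. Over the refitted models, the named sites kept their call in 67 of 77 cases for AL-old against AL-middle, but in 16 of 44 for CR-old against AL-old. No paired analysis was possible because no groups share replicate numbers. Precision is limited most in AL-old 24, with the fewest reads.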
